A study of Mus musculus with 10 samples.

Results

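The fibroblast growth factor (FGF) genes described here are 10 genes of MC3T3-E1 cells: the ligands Fgf2, Fgf7 and Fgf18, the receptors Fgfr1, Fgfr2 and Fgfr3, and the feedback genes Dusp6, Spry1, Spry2 and Spry4. They were chosen by gene name from a table of 29583 genes and loci, and all 10 were found. MC3T3-E1 is a line of osteoblast precursors derived from the skull of newborn C57BL/6 mice. A single subclone was used, so the libraries stand for 1 line, and the labels give bone marrow stem cells as the source. β-Ecdysterone is a sterol made by plants. It was added to standard medium at 0, 100, 150 or 200 μM, cells were collected after 5 or 10 days, and mRNA was selected with oligo(dT) and sequenced. The table held 1 library for each dose and day. The 6 libraries at 100, 150 and 200 μM were therefore compared as treated cells with the 2 libraries at 0 μM. A further 2 libraries, A-5 and B-4, were labelled as untreated with no day. Each treated or 0 μM library had its own dose and day, but no label says that the cultures were started independently. The paper gives a replicate number for RNA extraction, and the labels do not say whether a library pooled replicates. The doses served as replicates, so the p-values measure the spread between these libraries. That spread includes any differences between doses, and it may not be that of independent cultures.

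The libraries held between 27108562 and 58218009 counts. They fell into 4 libraries above 40000000 counts (0 μM on day 5, 150 μM on both days and 200 μM on day 10) and 6 below, and each depth class held 1 library at 0 μM and 3 treated libraries. A count of 0 allows up to 3 counts, or between 0.0499 and 0.118 CPM (counts scaled to the TMM-normalized library total), and this limit covers counting error only. None of the 8 osteoblast markers was at 0 in all libraries. Their summed level was 21426 and 26289 CPM at 0 μM and 17685 to 37747 CPM in treated cells. In treated cells 5 of 8 rose, against 13.4% of all genes tested, and none fell. Col1a1 and Col1a2 held most of the sum, at 8365 and 11739 CPM at 0 μM on day 5. Alpl (0 and 0.0633 CPM), Ibsp and Bglap were each below 1 CPM at 0 μM, while Runx2, Sp7 and Sparc were above 5 CPM. The summed markers of macrophages reached at most 1.95 CPM, those of adipocytes 1.70 CPM, those of endothelial cells 2.53 CPM, those of epithelial cells 1.02 CPM and those of muscle 0.638 CPM. The 2 endothelial markers Cdh5 and Tek, and 1 of the adipocyte markers, rose in treated cells within these levels. The 4 chondrocyte markers summed to between 58.8 and 160 CPM. In bulk RNA, fewer cells of a type and less RNA per cell cannot be told apart.

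FGF ligands bind receptor tyrosine kinases at the cell surface together with heparan sulfate, and the bound receptors signal through Ras to the kinase ERK. Active ERK raises transcription of its own inhibitors, among them the phosphatase Dusp6 and the Sprouty proteins, so these genes are widely used as readouts of the pathway. In bone, FGF signalling controls the growth and the maturation of osteoblast precursors, and changes in FGFR2 are a known cause of early fusion of the skull sutures.

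Promoter windows of 4 members with changes in both directions are shown for reference. They are from RefSeq on GRCm38.p6 and hold the 200 bases that lie between 250 and 51 bases before the start that RefSeq gives, 5′ to 3′ on the strand of the gene, with capitals for GC boxes (GGGCGG on either strand). The Fgfr2 window is at chr7:130266859-130267058 on the minus strand, inside the longer interval that GENCODE M21 gives for this gene, and the Fgfr3 window, of the first of its 2 listed starts, at chr5:33721474-33721673 on the plus strand, where an exon of the opposite-strand gene G630022F23Rik, not analysed here, also lies. The Dusp6 window is at chr10:99262981-99263180 on the plus strand and the Spry2 window at chr14:105896870-105897069 on the minus strand.
Fgfr2: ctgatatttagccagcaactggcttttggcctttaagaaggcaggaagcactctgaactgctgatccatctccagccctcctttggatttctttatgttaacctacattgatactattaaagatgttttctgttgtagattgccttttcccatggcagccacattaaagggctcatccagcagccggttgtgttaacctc
Fgfr3: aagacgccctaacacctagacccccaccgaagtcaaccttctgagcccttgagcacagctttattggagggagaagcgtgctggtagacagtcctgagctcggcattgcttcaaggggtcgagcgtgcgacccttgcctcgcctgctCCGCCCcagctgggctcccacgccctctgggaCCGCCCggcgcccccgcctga
Dusp6: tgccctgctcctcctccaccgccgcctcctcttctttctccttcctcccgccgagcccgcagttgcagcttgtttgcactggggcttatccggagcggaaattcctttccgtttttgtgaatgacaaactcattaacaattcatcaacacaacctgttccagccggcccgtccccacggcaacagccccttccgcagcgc
Spry2: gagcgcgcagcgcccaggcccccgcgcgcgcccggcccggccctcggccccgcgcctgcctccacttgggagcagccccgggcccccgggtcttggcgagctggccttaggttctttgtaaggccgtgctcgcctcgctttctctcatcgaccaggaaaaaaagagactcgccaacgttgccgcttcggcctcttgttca
The Fgfr2 window was 44.0% GC with 1 CpG, the Fgfr3 window 65.0% with 14, the Dusp6 window 58.0% with 13 and the Spry2 window 69.5% with 23. The medians over 32851 windows of this length were 51.5% GC and 4 CpG. The table held 9 windows for 8 of the 10 members. GC boxes were found in 4 of the 9 windows (Fgfr3 at both starts, Fgf18 and Spry1), against 24.6% of all windows. The letters CCGGAAG (an ETS core, in 3.98% of all windows), TGTGGT (a Runx core, 11.6%), TGANTCA (AP-1, 5.57%), TGACGTCA (CRE, 0.828%) and the serum response core (0.0609%) were searched on both strands and were in none of the 9. That says only that these letters are not in these windows.

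The ligands moved in opposite directions. Fgf2, a broadly acting FGF that osteoblasts store in their matrix (chr3:37348346-37410108, plus strand, GRCm38), was at 6.90 and 5.63 CPM at 0 μM on days 5 and 10. In treated cells it ranged from 24.5 to 41.8 CPM with a median of 33.0 (33.1 ± 6.80, SD, n = 6). Every treated library lay above both 0 μM libraries, and each was 3.55 to 7.42 times the 0 μM library of its day. By the quasi-likelihood test of edgeR, adjusted for day, Fgf2 rose by 2.36 on the log2 scale (SE 0.20, adjusted p = 2.02e-05), or 5.13-fold. Fgf2 shares 640 exonic bases (9.44% of its own) with Nudt6 on the opposite strand, and whether counting used strand is not given in the sources used here, so reads from the shared bases cannot be told apart. Nudt6 held only 35 to 97 counts in the 10 libraries and was 0.72 higher in treated cells on the log2 scale (SE 0.26, adjusted p = 0.0471 in the same test).

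Fgf7, a ligand that mesenchymal cells release and that acts on the epithelial splice form of Fgfr2 (chr2:126034658-126091185, plus strand), fell. It was at 369 and 453 CPM at 0 μM, and at 116 to 215 CPM in treated cells with a median of 149 (152 ± 33.9, SD, n = 6). The groups did not overlap, and the change was -1.46 on the log2 scale (SE 0.17, adjusted p = 0.000145 in the same test). Untreated A-5 had 532 CPM and B-4 312 CPM, both above all treated libraries. Fgf18, a ligand of bone and cartilage growth (chr11:33117430-33147400, minus strand), was barely detected, at 0.315 and 0.127 CPM at 0 μM and 0.366 to 1.14 CPM in treated cells with a median of 0.431. Its estimate of 1.16 (SE 0.61) did not pass the test (adjusted p = 0.152). All 6 treated libraries lay above both 0 μM libraries, but these held only 16 and 4 counts. Untreated A-5 had 0.393 CPM and B-4 0.638 CPM, both within the treated range. With A-5 and B-4 as controls, Fgf18 changed by 0.04 on the log2 scale (adjusted p = 0.964, edgeR's quasi-likelihood test).

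**Figure D1:**
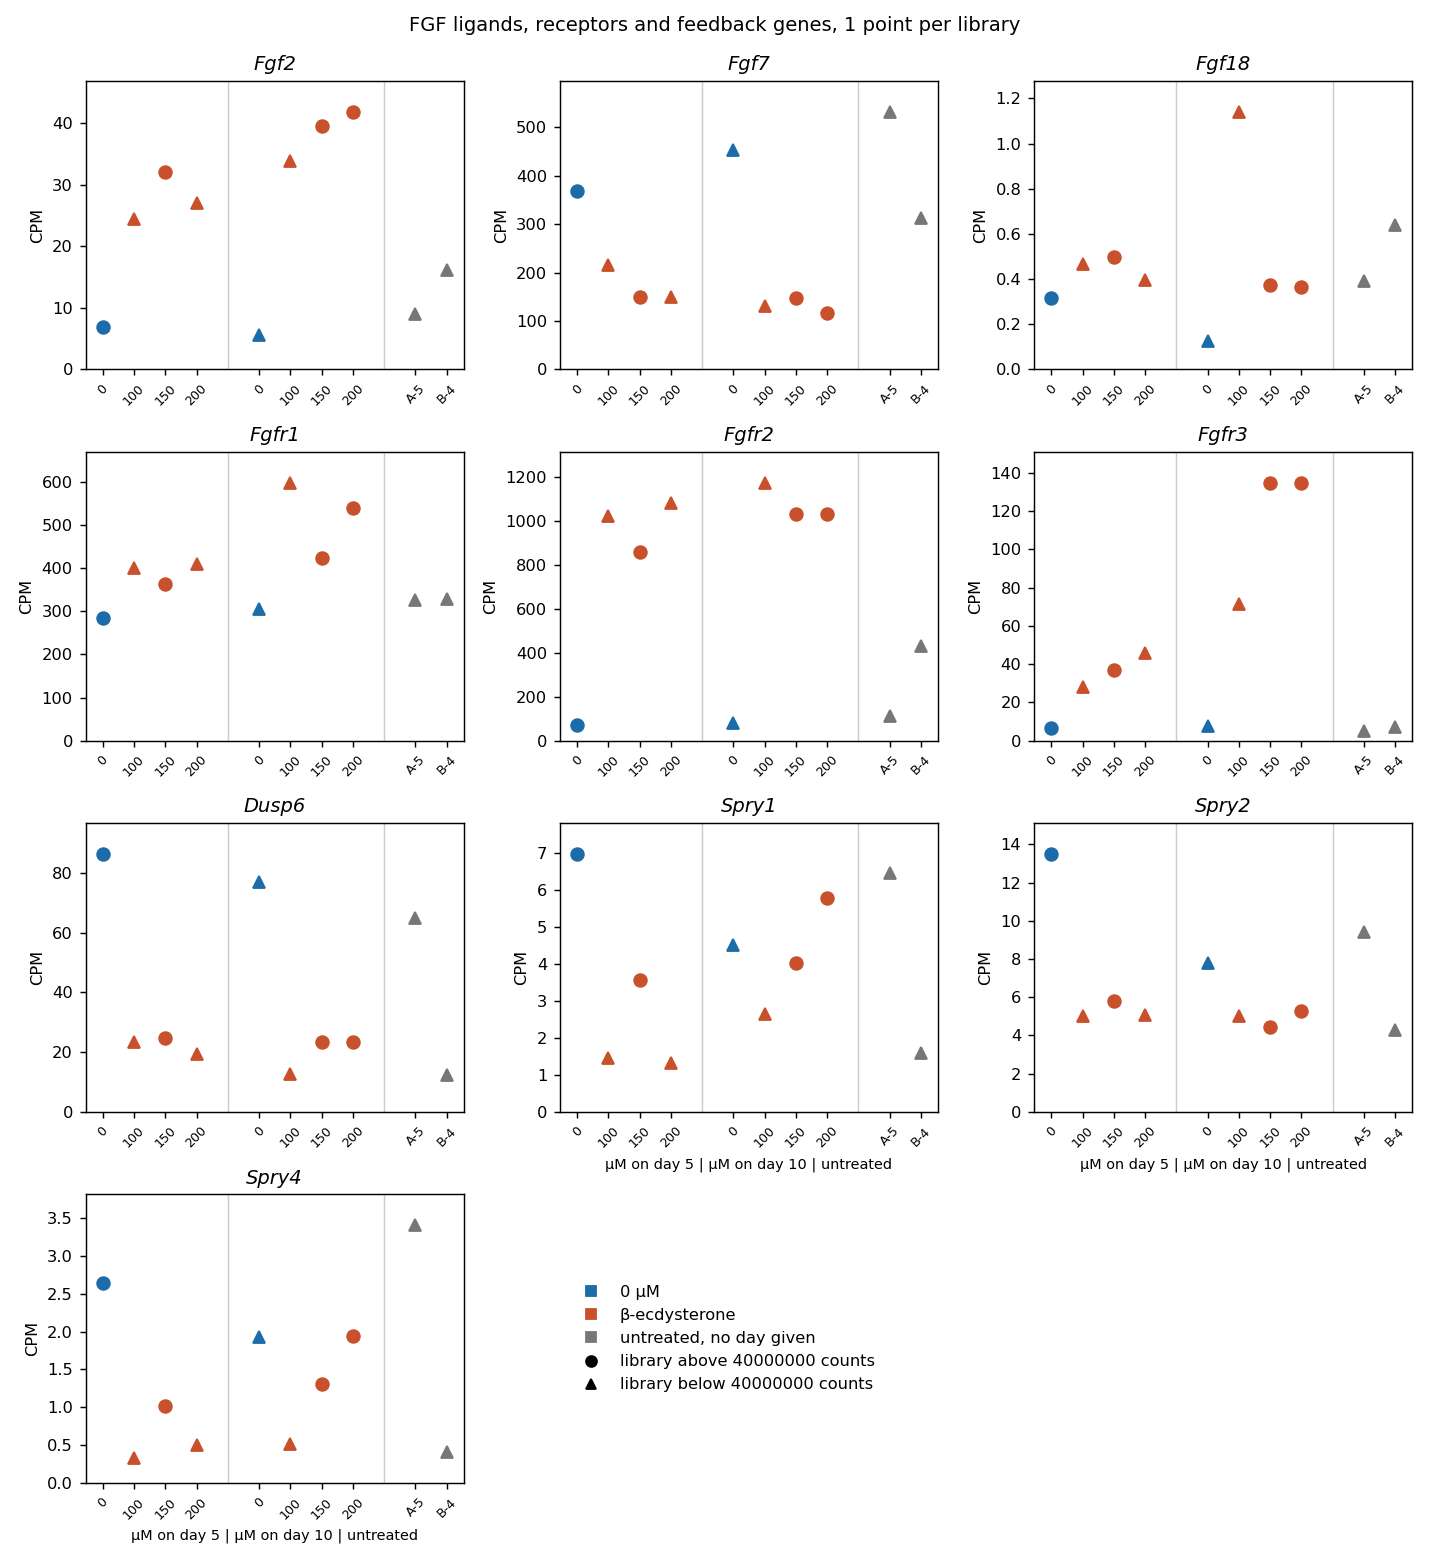
CPM of the 10 genes in the 10 libraries, 1 panel per gene on a linear axis from 0, by dose and day, with circles for libraries above 40000000 counts and triangles for those below. Fgfr2 separates the treated libraries (859 to 1172 CPM) from 0 μM (70.5 and 79.4 CPM), and B-4 lies between them at 433 CPM, while Dusp6 in B-4 (12.4 CPM) lies just below the lowest treated library (12.6 CPM).

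Fgfr1, Fgfr2 and Fgfr3 all rose, and Fgfr2 rose most. Fgfr2, a receptor of osteoblast precursors (chr7:130162451-133123350, minus strand), was at 70.5 and 79.4 CPM at 0 μM. In treated cells it ranged from 859 CPM at 150 μM on day 5 to 1172 CPM at 100 μM on day 10, with a median of 1031 (1032 ± 102, SD, n = 6). Treated libraries were 12.2 to 15.3 times the 0 μM library of the same day, with no overlap, and the change was 3.78 on the log2 scale (SE 0.15, adjusted p = 4.61e-07, edgeR's quasi-likelihood test), or 13.8-fold. Untreated A-5 held 113 CPM and B-4 433 CPM, so both were above 0 μM and below every treated library. Leaving out any 1 library gave values between 3.75 and 3.83. The Fgfr2 annotation shares 314 exonic bases (3.04%) with Ctbp2 on the same strand, and Ctbp2 moved the other way (-0.52, SE 0.09, adjusted p = 0.00101).

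Fgfr3, which restrains the growth of cartilage and is also made by osteoblasts (chr5:33721674-33737068, plus strand), was at 6.49 and 7.44 CPM at 0 μM. Its treated libraries were 28.0, 36.9 and 45.9 CPM at 100, 150 and 200 μM on day 5 and 71.5, 135 and 134 CPM on day 10. All 6 were above 0 μM, and every day 10 library was above every day 5 library. The change over both days was 3.15 on the log2 scale (SE 0.40, adjusted p = 0.000221), or 8.86-fold. It was 2.50 without 0 μM on day 10 and 3.93 without 0 μM on day 5. Both untreated libraries were at the 0 μM level, with 4.81 CPM in A-5 and 6.89 CPM in B-4. Fgfr3 shares 998 exonic bases (13.9% of its own) with G630022F23Rik on the opposite strand, which was not analysed here.

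Fgfr1, the most abundant receptor at 0 μM (chr8:25513654-25575718, plus strand), changed least. It was at 284 and 307 CPM at 0 μM and 364 to 598 CPM in treated cells with a median of 417 (456 ± 91.5, SD, n = 6). The groups did not overlap and it rose by 0.61 on the log2 scale (SE 0.14, adjusted p = 0.00656), below the fold limit of 1. Without the 0 μM library of day 10 the value was 0.46 and no longer passed (adjusted p = 0.117).

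Because FPKM scales counts to transcript length, it allows the receptors to be compared with each other. Summed over Fgfr1 to Fgfr4, receptor FPKM was 87.2 and 89.3 at 0 μM and 341 ± 27.7 (SD, n = 6) in treated cells. Fgfr2 made up 18.2% and 20.5% of that sum at 0 μM and 66.5% ± 4.28 in treated cells, with no overlap (60.7% to 71.0%). The share of Fgfr1 went from 80.2% and 77.6% to 28.8% ± 2.70, and Fgfr3 went from 1.62% and 1.88% to 4.65% ± 2.88, where the lowest treated library (1.88%) reached the higher 0 μM value. The ratio of Fgfr2 to Fgfr1 was 0.227 and 0.264 at 0 μM and 2.33 ± 0.332 in treated cells. Fgfr4 never exceeded 0.0518 FPKM. In B-4 Fgfr2 held 56.7% of a sum of 164, and in A-5 26.3% of 107. These are shares of the FPKM of genes, and splice forms of Fgfr2 were not separated.

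**Figure D2:**
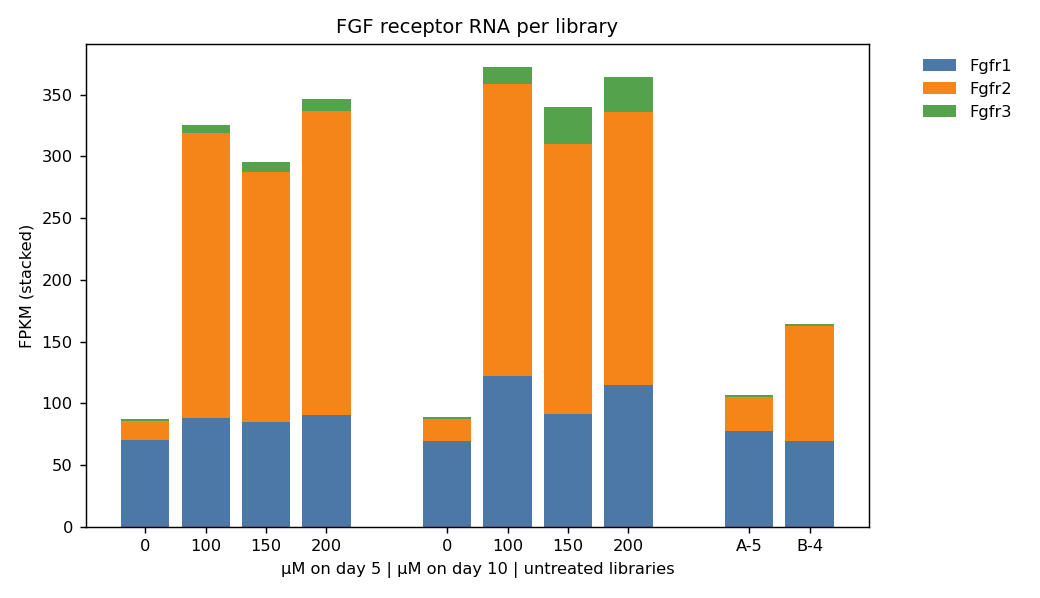
FPKM of Fgfr1, Fgfr2 and Fgfr3 stacked in 1 bar per library, by dose and day, with the untreated libraries at the right. The sum is 87.2 and 89.3 at 0 μM, mostly Fgfr1, and 296 to 372 in treated libraries, where Fgfr2 is the largest share in each.

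The feedback genes Dusp6 and Spry2 fell. Dusp6, which dephosphorylates ERK in the cytoplasm (chr10:99263231-99267489, plus strand), was at 86.3 and 76.9 CPM at 0 μM and 12.6 to 24.7 CPM in treated cells with a median of 23.2 (21.1 ± 4.52, SD, n = 6). No treated library reached 0 μM, each being 0.164 to 0.302 times the 0 μM library of its day, and the change was -1.94 on the log2 scale (SE 0.18, adjusted p = 3.88e-05, edgeR's quasi-likelihood test). Spry2, an intracellular inhibitor of receptor signalling (chr14:105891947-105896819, minus strand), was at 13.5 and 7.79 CPM at 0 μM and 4.44 to 5.78 CPM in treated cells with a median of 5.04. These groups did not overlap either, and Spry2 changed by -1.03 (SE 0.17, adjusted p = 0.00117). Its value lay at the fold limit: it was -0.67 when 0 μM on day 5 was left out, and without 100 μM on day 5 -0.99 and without 200 μM on day 5 -0.99, each still past the adjusted p.

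Spry1 and Spry4, relatives of Spry2 with the same inhibitory role, did not pass. Spry1 (chr3:37639947-37644598, plus strand) was at 6.96 and 4.49 CPM at 0 μM and 1.32 to 5.77 CPM in treated cells with a median of 3.10, so the groups overlapped (-0.99 on the log2 scale, SE 0.45, adjusted p = 0.0997). Spry4 was at 2.64 and 1.93 CPM at 0 μM and 0.333 to 1.94 CPM in treated cells with a median of 0.762, and overlapped by 1 library (-1.38, SE 0.51, adjusted p = 0.0502). By FPKM the groups of Spry4 did not overlap, at 0.524 and 0.378 at 0 μM and at most 0.371 in treated cells. Spry4 lay at the threshold and did pass by DESeq2 (adjusted p = 0.0261). Without 0 μM on day 10 Spry1 was at -1.69 (adjusted p = 0.0421) and Spry4 at -2.04 (adjusted p = 0.0442), and without 0 μM on day 5 they were at -0.10 (adjusted p = 0.904) and -0.58 (adjusted p = 0.542). The annotation places an opposite-strand gene, not analysed here, over 24.4% of the exonic bases of Spry1.

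Both genes were also compared between the depth classes, and neither passed. Within treated cells, the estimate for libraries above 40000000 counts against those below was 1.13 on the log2 scale for Spry1 (SE 0.24, adjusted p = 0.0590) and 1.47 for Spry4 (SE 0.33, adjusted p = 0.0704), with day as a covariate. Set against the 0 μM library of the same depth class, Spry1 was 0.294 to 0.829 times and Spry4 0.172 to 0.736 times as high. Each was lower in 6 of 6 libraries, against 5 of 6 when matched by day. Matching by depth crossed the days: 100 and 200 μM on day 5 were set against 0 μM on day 10. Likewise, 150 and 200 μM on day 10 were set against 0 μM on day 5. Day and depth class were tied in the 2 libraries at 0 μM, so neither matching separates them. With depth class added to day, a setting added once the data had been seen, Spry1 was at -1.02 (SE 0.19, adjusted p = 0.00203) and Spry4 at -1.50 (SE 0.26, adjusted p = 0.00134). None of the 10 members passed the edgeR test of depth class itself, where 5 members and 2141 of all genes had an unadjusted p under 0.05. Across the 14341 genes tested, 0.293% were higher and 0.662% lower in the deeper libraries. Dose and depth class were partly tied within treated cells: both libraries at 150 μM were above 40000000 counts and both at 100 μM below. What else differed between the depth classes was not tested.

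**Figure D3:**
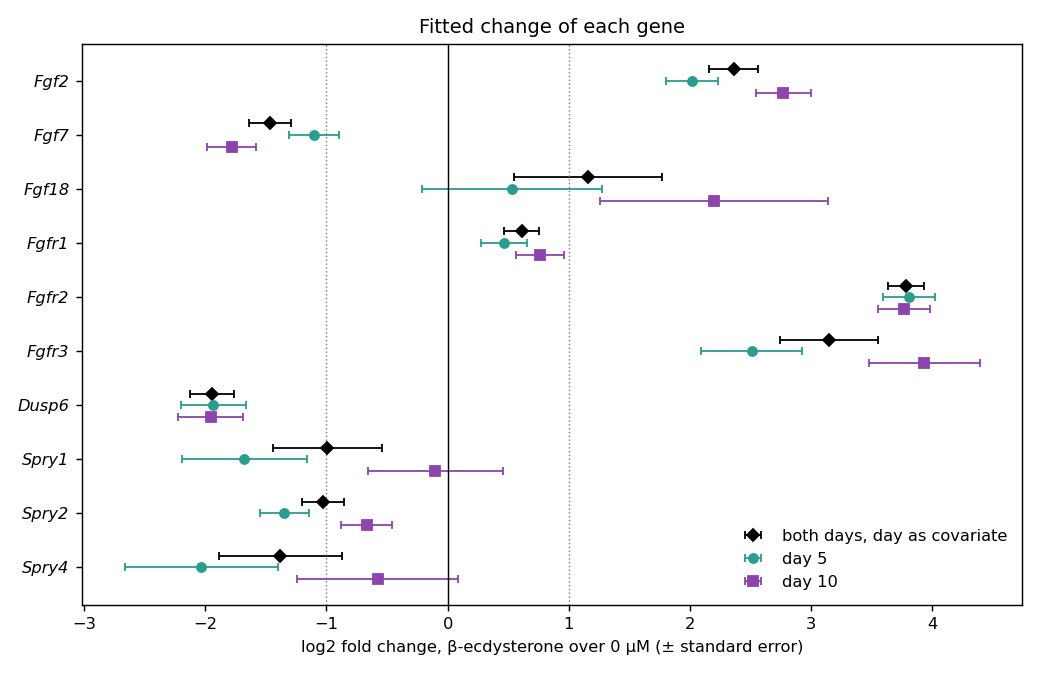
Log2 fold change of each gene in treated cells against 0 μM with its standard error, over both days (diamonds), on day 5 (circles) and on day 10 (squares), with dotted lines at the fold limit. Over both days Fgfr2, Fgfr3 and Fgf2 lie beyond 1 and Fgf7, Dusp6 and Spry2 beyond -1 and passed the test. Spry1 lies at -1.68 on day 5 and -0.10 on day 10, where the 0 μM library was above 40000000 counts on day 5 and below on day 10.

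All 10 genes passed the filter on low counts. Of them 3 rose (Fgf2, Fgfr2 and Fgfr3) and 3 fell (Fgf7, Dusp6 and Spry2) past both limits (adjusted p under 0.05, log2 change over 1 in either direction), where 13.4% of the 16794 genes tested rose and 5.98% fell. With no fold limit Fgfr1 joined them, giving 4 that rose against 22.6% of all genes and 3 that fell against 20.8%. By CPM, all 6 treated libraries were above both 0 μM libraries for 5 members and below for 3. This held for 27% and 25.7% of all genes, so the non-overlap of single genes was common in this comparison. Against the untreated libraries in place of 0 μM, and without day as a covariate, Fgf2, Fgf7, Fgfr2 and Fgfr3 passed. The share of all genes that passed in this comparison is not given here. In that comparison the change of Fgfr2 was 1.92 (adjusted p = 0.0141) and that of Fgf2 1.40 (adjusted p = 0.00912). Dusp6 (-0.87, adjusted p = 0.208), Spry2 (-0.42, adjusted p = 0.282) and Fgfr1 (0.48, adjusted p = 0.114) did not pass. The 2 untreated libraries stood apart from each other in these genes: Dusp6 was 65.1 CPM in A-5 and 12.4 CPM in B-4, Spry2 9.39 and 4.30, Spry1 6.45 and 1.58, and Spry4 3.40 and 0.403.

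The order of the genes by FPKM also differed between the groups. At 0 μM Fgf7 led with 127 and 155 FPKM, followed by Fgfr1 (69.9 and 69.3), Dusp6 (28.2 and 25.1), Fgfr2 (15.9 and 18.3) and Spry2 (5.87 and 3.38). Spry1, Fgfr3, Fgf2, Spry4 and Fgf18 followed below 3 FPKM, and among neighbours in this order only Spry1 and Fgfr3 overlapped. In treated cells Fgfr2 led with 226 ± 15.0 FPKM, followed by Fgfr1 (98.6 ± 15.6) and Fgf7 (50.5 ± 12.1), and these 3 did not overlap. Fgfr3 (16.1 ± 10.4) overlapped with Dusp6 (6.67 ± 1.59), and Dusp6 with Fgf2 (5.03 ± 0.935). Spry2, Spry1, Fgf18 and Spry4 came last, each overlapping with the next.

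Between the days, Fgfr3 was the member that changed within treated cells. It was higher on day 10 by 1.62 on the log2 scale (SE 0.25, adjusted p = 0.0173, edgeR's quasi-likelihood test), where 0.863% of genes rose and 0.161% fell beyond the fold limit and 2.64% passed in either direction without it. The call ended without 200 μM on day 5 (1.81, adjusted p = 0.0841) or without 200 μM on day 10 (1.49, adjusted p = 0.0867). Fgfr1 was 0.41 higher on day 10 and did not pass (adjusted p = 0.147), but it passed by DESeq2 (adjusted p = 0.0346), with depth class added (0.48, adjusted p = 0.0464) and without 150 μM on day 10 (0.54, adjusted p = 0.0479). Fgf2 was 0.46 higher (adjusted p = 0.0995) and passed by DESeq2 (adjusted p = 0.0303).

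Against the single 0 μM library of each day, Fgfr2 rose by 3.81 on day 5 and 3.76 on day 10, and Fgfr3 by 2.51 and 3.93. The 0 μM library was above 40000000 counts on day 5 and below on day 10. Day and depth class were therefore tied in the controls of the values per day, those of Spry1 and Spry4 included. Dusp6 was at -1.93 and -1.95. Spry1 was at -1.68 on day 5 (SE 0.52, adjusted p = 0.0418) and -0.10 on day 10 (SE 0.56, adjusted p = 0.904), and Spry4 at -2.03 (SE 0.63, adjusted p = 0.0439) and -0.58 (SE 0.67, adjusted p = 0.537). A difference of the effect between days passed for 0 members in edgeR and 0 in DESeq2, where 0.0119% of genes passed in edgeR. At an unadjusted p under 0.05 there were 2 members, Fgf2 and Fgfr3, and 1395 genes. The difference for Fgfr3 was 1.43 (SE 0.53, adjusted p = 0.529) and for Spry1 1.58 (SE 0.79, adjusted p = 0.643).

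No trend with dose passed within treated cells, for 0 members and 0% of 14341 genes in edgeR and 0 members in DESeq2. At an unadjusted p under 0.05 there were 2 members, Fgfr3 and Fgf7, and 338 genes. Fgfr3 was 0.80 higher per 100 μM (SE 0.18, adjusted p = 0.997) and Fgf7 -0.36 (SE 0.16, adjusted p = 0.997). Both libraries at 100 μM were below and both at 150 μM above 40000000 counts, so dose and depth were partly tied.

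Other genes of the pathway were counted from lists by role, each beside the median log2 change of 0.05 over all genes. Past both limits, 13.4% of all genes tested rose and 5.98% fell, and the small counts of some lists are near these shares. Of 19 other FGF ligands, 5 passed the filter and 2 rose, Fgf14 (2.92, SE 0.86, adjusted p = 0.0202) and Fgf17 (1.73, SE 0.49, adjusted p = 0.0171), both below 1 CPM in every library. Of 4 other receptors and co-receptors, 2 were tested and Klb, a co-receptor of endocrine FGFs, rose (2.21, SE 0.70, adjusted p = 0.0278) from below 0.1 CPM at 0 μM. Klb was at 0.360 and 0.403 CPM in the untreated libraries and had a treated mean of 0.333 CPM. Against the untreated libraries, alone or added to 0 μM, no gene of either list rose, and with 1 library left out 1 to 4 of the ligands and 0 to 1 of the receptors and co-receptors did. Fgfrl1, a receptor without a kinase domain, was at 36.2 and 38.3 CPM at 0 μM and 47.3 to 66.1 CPM in treated cells, a rise of 0.58 (SE 0.14, adjusted p = 0.00816) below the fold limit.

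Of 21 genes that bind FGF or shape heparan sulfate, 16 were tested, 2 rose and 2 fell, with a median of -0.24. The sulfatase gene Sulf1 was at -2.63 (SE 0.64, adjusted p = 0.00857), the sulfotransferase gene Hs6st2 at -1.33 (SE 0.36, adjusted p = 0.0150), the membrane protein gene Flrt1 at 2.32 (SE 0.48, adjusted p = 0.00358) and the proteoglycan gene Sdc2 at 1.10 (SE 0.11, adjusted p = 4.39e-05). With 1 library left out, between 0 and 2 of them fell and 1 to 2 rose. The untreated libraries had less Hs6st2 (6.06 and 3.33 CPM) than every treated library (9.84 to 31.6 CPM), and 36.9 and 53.9 CPM were measured at 0 μM. Sulf1 was at 0.295 CPM in A-5 and 0.0672 CPM in B-4, against 0.154 to 1.56 CPM in treated cells. Sdc2 was at 324 and 650 CPM in A-5 and B-4, against 500 to 623 CPM in treated cells. For Flrt1 these values were 0.524 and 0.403 CPM, against 1.40 to 2.77 CPM in treated cells.

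All 24 genes of the route from receptor to ERK were tested, 1 fell and none rose beyond the fold limit, with a median of -0.10. With no fold limit 7 fell and 3 rose past the adjusted p, where 20.8% of all genes fell and 22.6% rose. The gene that fell was Rasa1, a Ras inhibitor, from 105 and 91.1 CPM at 0 μM to 39.3 to 48.5 CPM in treated cells (-1.17, SE 0.09, adjusted p = 1.45e-05). Of 10 other feedback genes 8 were tested, and 3 fell: the phosphatases Dusp5 (-1.66, SE 0.14, adjusted p = 2.30e-05) and Dusp4 (-1.42, SE 0.31, adjusted p = 0.00447), and Spred2, a Sprouty relative (-1.23, SE 0.11, adjusted p = 2.19e-05). Dusp5 was at 35.1 and 35.2 CPM at 0 μM, 8.61 to 14.4 CPM in treated cells and 14.1 and 15.0 CPM in the untreated libraries. The median of the list was -0.26, and Spred1 (-0.25, adjusted p = 0.104) and Il17rd (-0.15, adjusted p = 0.331) did not pass. In the other direction Cnpy2 rose by 0.76 (adjusted p = 0.000215) and Dusp7 by 0.35 (adjusted p = 0.0193), both below the fold limit. Cnpy2 is in this list only by the choice made here, and whether ERK induces it was not tested.

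Of 14 genes that ERK signalling is known to raise, all were tested and 11 fell, against 5.98% of all genes tested, with a median of -1.93. The largest changes were in Fosl1, a subunit of AP-1 (-3.62, SE 0.21, adjusted p = 2.90e-06), the zinc finger factor Egr1 (-3.57, SE 0.28, adjusted p = 1.38e-05) and Phlda1 (-2.66, SE 0.11, adjusted p = 6.22e-07). Egr1 was at 391 and 381 CPM at 0 μM and 20.6 to 59.4 CPM in treated cells, with no overlap. In the untreated libraries it was at 509 CPM in A-5 and 11.9 CPM in B-4. Of the other genes Etv4 did not pass (-1.26, adjusted p = 0.0516), Ccnd1 was at -0.05 (adjusted p = 0.799), and Myc rose by 0.60 (adjusted p = 0.00501), below the fold limit. Against the untreated libraries, 5 of the 14 fell, 1 rose and 0 of the 8 other feedback genes fell. With the untreated libraries added to 0 μM, 9 of the target genes and 1 of the feedback genes fell. The shares of all genes in these comparisons with untreated libraries are not given here.

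**Figure D4:**
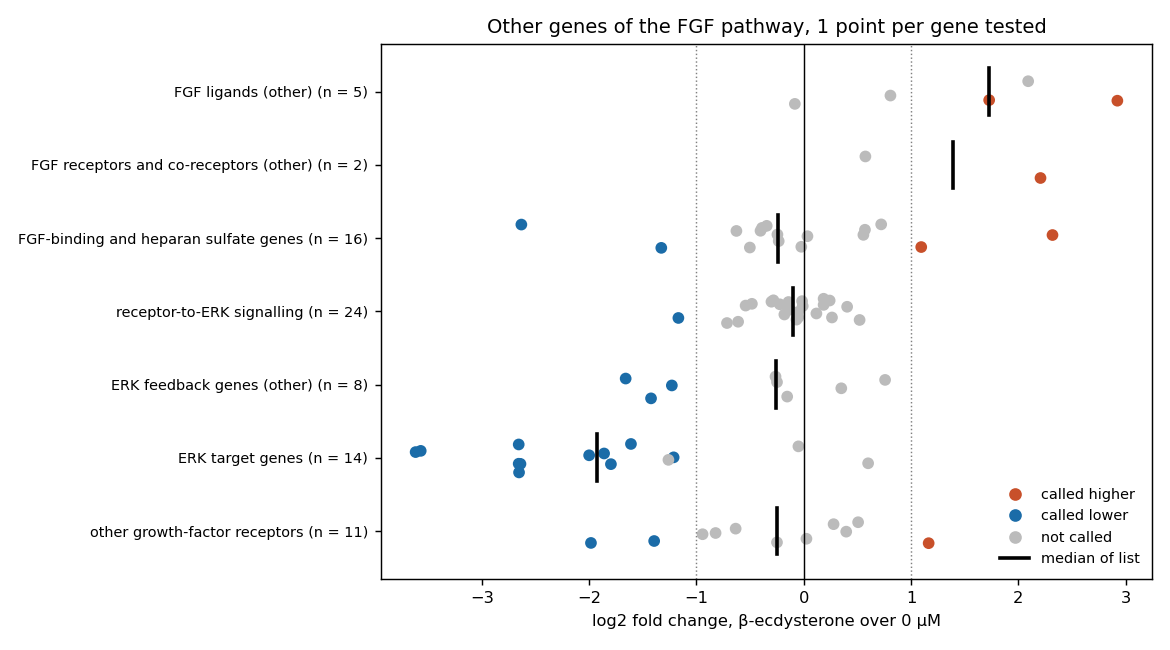
Log2 fold change of the tested genes of each pathway list, in treated cells against 0 μM, with 1 point per gene, a bar at the median of each list and colours for genes past both limits. The ERK target genes have a median of -1.93 and 11 of 14 fell, where 5.98% of all genes tested fell. The 24 genes of the route from receptor to ERK have a median of -0.10, and with no fold limit 7 fell and 3 rose.

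Genes with the pattern most like each member were found by the root mean square difference of centred log2 CPM over the 10 libraries, among genes with a mean of at least 5 CPM. Fgf2 was nearest to Spock2 (0.111) and Kdm7a (0.162), and Fgfr1 to Foxn3 (0.104) and Mtmr12 (0.120). Fgf7 was nearest to Kif21a (0.200) and Galk2 (0.204), which lies 50359 bases away on the same chromosome. The genes nearest to Fgfr2 were Kctd14 (0.279) and Itpr1 (0.344), and those nearest to Fgfr3 were Pth1r (0.264), the receptor of parathyroid hormone, and Fgd3 (0.314). For Dusp6 they were Pdzd2 (0.207) and Pole2 (0.250), for Spry2 Ttll7 (0.187) and Lif (0.190), and for Fgf18 Rgmb (0.347) and 2610301B20Rik (0.368). Spry1 and Spry4 had the same nearest genes, Etv1 (0.343 and 0.379) and Kcnh2 (0.367 and 0.424). Of the pairs within the 10 members, Spry1 and Spry4 were closest, at 0.377. These distances describe the libraries and share their depth, and carry no test.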

How the data were processed

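The authors deposited raw counts per gene and length-scaled FPKM values for 10 libraries. The submitters' processing notes name HISAT2 2.0.4 and GATK 3.2-2. The counting program, genome build and annotation are not given in the sources used here. The authors' own comparison columns (fold changes, p-values, direction) and annotation terms in the deposited table were not used.

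Counts were analysed with edgeR 4.0.16 in R 4.3.3 by its quasi-likelihood test with TMM scaling, filterByExpr and Benjamini-Hochberg adjustment over all genes tested. Day was a covariate for treated cells against 0 μM. A 4-group model gave the values per day, and dose was tested within treated cells. The script was tested on simulated data with known changes. Alternatives were DESeq2 1.42.0, limma 3.58.1 on log2(FPKM + 1), other scalings and filters, no day covariate, the untreated libraries as controls, and each library left out. The fits with the untreated libraries had no day covariate. Depth class and the alternatives for the lists were added after the data were seen. CPM for neighbours used a prior count of 2.

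Positions are from GENCODE M21 by Ensembl identifier. The genes named are the 10 members, up to 3 called genes of each list with the largest change, and the 2 nearest genes of each member. The 8 osteoblast markers are named as well. Cdh5, Tek, Fgfrl1, Sdc2, Spred1, Il17rd, Cnpy2, Dusp7, Etv4, Ccnd1, Myc and the genes that overlap members were chosen after their values were seen. The members and lists were chosen with earlier results of these data known. No coordinates are given for Spry4.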

Additional observations from a re-analysis of the deposited data

Results flagged for a closer look

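In 2 of the 10 members 1 treated library stood apart from the other 5. Fgf7 at 100 μM on day 5 was at 215 CPM while the other treated libraries were at 116 to 151 CPM, and its gap to the nearest of them was 0.654 of the range of the 6 libraries. Fgf18 at 100 μM on day 10 was at 1.14 CPM while the others were at 0.366 to 0.499 CPM, with a gap of 0.828 of the range. The limit for 6 libraries was 0.625, which chance passes in about 5% of groups drawn from a single population. The 6 treated libraries differed in dose and day, so that rate may not hold here. Both libraries were below 40000000 counts. Without the library that stood apart, Fgf7 was still lower in treated cells and Fgf18 was at 0.88 on the log2 scale (adjusted p = 0.133, edgeR's quasi-likelihood test).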

How the results depend on the processing

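The number of members past a log2 change of 1 and an adjusted p under 0.05 was 6, and ranged from 4 to 8 over the alternatives. Without the fold limit it was 7, with 4 when the untreated libraries were the controls and up to 9 with every gene kept or with depth class added. Leaving out 1 library gave 5 to 8 members with the fold limit and 7 to 8 without it. The shares of all genes under these alternatives are not given here. Spry4 passed with DESeq2 (adjusted p = 0.0261), library totals (0.0424), DESeq2 size factors (0.0498), every gene with at least 1 count (0.0181), limma (0.0384) and depth class (0.00134). Spry1 passed with every gene kept (0.0428) and with depth class. Without 0 μM on day 10, Spry1 (-1.69, adjusted p = 0.0421) and Spry4 (-2.04, adjusted p = 0.0442) passed, without 0 μM on day 5 they were at -0.10 (adjusted p = 0.904) and -0.58 (adjusted p = 0.542), and without 200 μM on day 10 Spry4 passed (-1.59, adjusted p = 0.0261). The cause was not tested. Within treated cells, 0 to 1 member was past both limits between days with 1 library left out. Over all values for single genes, those above included, 447 kept their side of the threshold, 15 newly passed and 6 no longer passed. Leaving out a 0 μM library leaves 1 control, assumed to vary like the other libraries.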

Other observations

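Of 12 other growth factor receptor genes, 11 were tested, 1 rose and 2 fell, with a median of -0.25. Over all genes tested, 13.4% rose and 5.98% fell. Pdgfra, a receptor for platelet-derived growth factor, rose from 414 and 412 CPM at 0 μM to 742 to 1226 CPM in treated cells (1.16, SE 0.20, adjusted p = 0.00129, edgeR's quasi-likelihood test). Met, the receptor of hepatocyte growth factor, fell from 60.2 and 60.4 CPM to 17.8 to 27.4 CPM (-1.39, SE 0.12, adjusted p = 2.07e-05). Erbb3 fell from 4.42 and 2.75 CPM to 0.529 to 1.23 CPM (-1.98, SE 0.31, adjusted p = 0.000728). In the untreated libraries Pdgfra was at 887 CPM in A-5 and 1930 CPM in B-4, Met at 41.2 and 15.0 CPM, and Erbb3 at 7.50 and 1.68 CPM. Pdgfra in A-5 lay within the treated range and in B-4 above it. Against the untreated libraries as controls, 1 of the 11 genes tested rose and 1 fell. Which genes these were, and the shares of all genes in that comparison, are not given here.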
